A study of Mus musculus with 6 samples.

Results

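The genes described here are 2 Notch receptors (*Notch1* and *Notch2*), 3 of their ligands (*Dll1*, *Dll4* and *Jag1*) and 2 nuclear coactivators (*Maml2* and *Maml3*). They were compared between lung endothelial cells (EC) of infant and young adult mice by their differentially methylated regions (DMRs), stretches of neighbouring CpGs whose methylation differed between the ages. A DMR was counted for a gene when its midpoint lay in the gene body or within 10 kb of it in the RefSeq annotation of mm10 (GRCm38). Of the 18,333 DMRs in the list, 44 met this rule, and none of them was shared between the genes.

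CpG methylation was measured by bisulfite sequencing of whole genomes with tagmentation (T-WGBS), in which a transposase fragments the DNA and bisulfite converts unmethylated cytosines. There were 3 samples of the infant group, aged 8 to 10 days, and 3 of the young adult group, aged 8 to 12 weeks. All 6 samples came from untreated C57BL/6N mice, which the study's methods describe as female, and no allele or agent set the groups apart besides age. EC were sorted from digested lung as live CD31+ CD34+ cells without the leukocyte, erythroid and lymphatic markers PTPRC, LY76, LYVE1 and PDPN. No expression values were analysed here, so that the sort could not be checked against marker genes, and a change in the makeup of the sorted cells cannot be told apart from a change within them. The list gives, for each DMR, the mean that the authors took in each group over its CpGs and its 3 samples. Values per sample were not analysed here. No difference between the ages could thus be compared with the variation among replicates, and the depth behind a mean is unknown. The authors selected the DMRs by a test on these same samples, and the sizes below are therefore those of selected regions, given as a description without a test.

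Notch receptors are cut after they bind a Delta-like or Jagged ligand on a neighbouring cell. The freed intracellular domain then joins the DNA-binding protein RBPJ and a Mastermind-like coactivator (MAML) in the nucleus and switches on target genes. In blood vessels, DLL4 and NOTCH1 restrain the formation of tip cells in sprouting angiogenesis, and the pathway takes part in arterial specification and in the attachment of mural cells.

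A short DMR lay at the *Dll1* promoter and a row of 5 lay upstream of *Dll4*, and their sequences are shown because the account of the ligands turns on them. The *Dll1* promoter is given on the minus strand, in the direction of transcription, as the 250 bases before the TSS in RefSeq (GRCm38.p6, chr17:15376933-15377182), with the DMR in capitals and the remaining bases in lower case.
Dll1 promoter: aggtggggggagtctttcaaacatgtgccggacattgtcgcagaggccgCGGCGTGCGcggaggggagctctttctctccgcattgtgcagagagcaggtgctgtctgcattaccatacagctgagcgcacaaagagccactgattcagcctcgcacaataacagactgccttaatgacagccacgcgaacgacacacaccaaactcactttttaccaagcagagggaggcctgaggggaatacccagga
The 5 regions upstream of *Dll4* are given on the plus strand of mm10, which is the strand of the gene, from the first C to the last G of each DMR and with the CpGs in capitals.
chr2:119322230-119322247: CGgcatctgtcCGaggCG
chr2:119322324-119322351: CGctgcCGgggCGcatctgCGgggagCG
chr2:119322421-119322515: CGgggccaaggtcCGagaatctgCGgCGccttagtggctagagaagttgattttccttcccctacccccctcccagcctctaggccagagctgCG
chr2:119322613-119322642: CGcCGgcctcatttcaatgtgaatggatCG
chr2:119322709-119322722: CGgctCGcagcaCG
Each of these sequences begins and ends with a CpG, and the 5 DMRs hold 3, 5, 5, 3 and 3 CpGs.

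Of the 44 DMRs, 23 gained methylation from infant to young adult EC and 21 lost it. The gains made up 52.3% of the DMRs at the Notch genes and 54.1% of all DMRs, and 45.9% of all DMRs were losses, so that the split by direction at these genes was close to that of the list as a whole. The genes themselves fell on different sides of this split. All DMRs of *Notch2* (5), *Dll1* (3) and *Jag1* (1) were gains, *Notch1* had 7 losses and 1 gain, *Maml2* had 3 losses and 1 gain, and *Dll4* (6 gains and 5 losses) and *Maml3* (6 of each) had both directions.

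**Figure D1:**
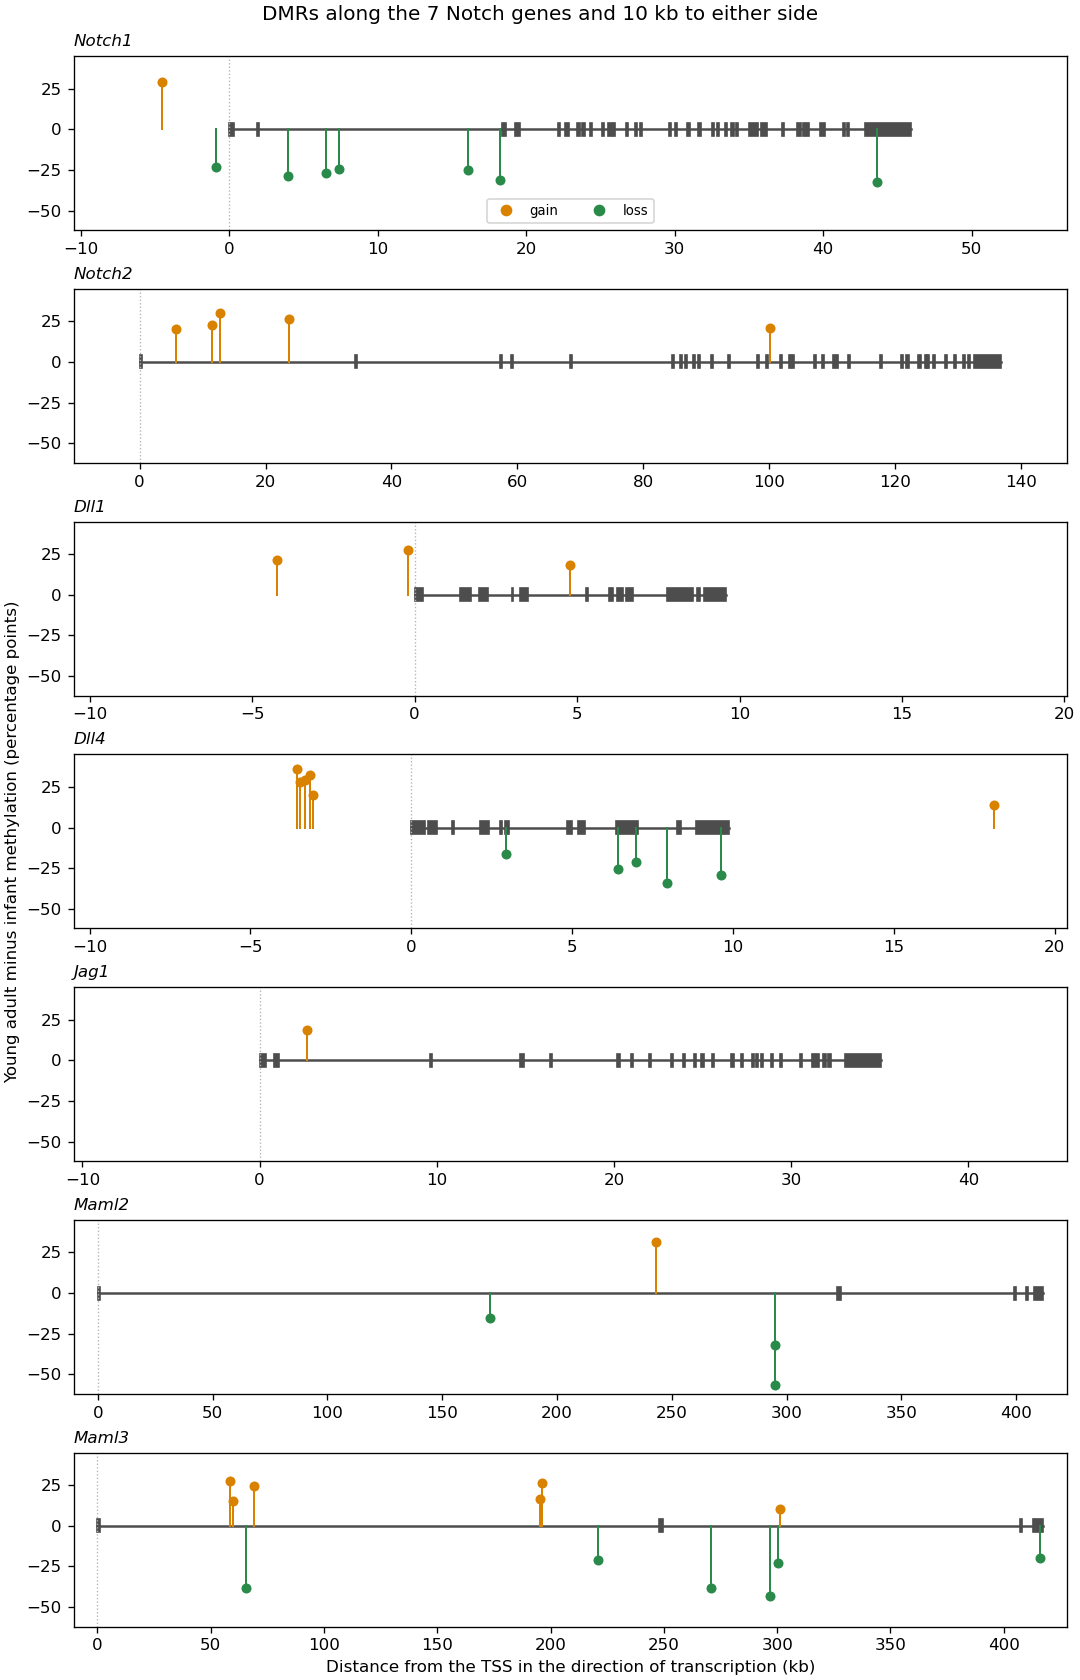
Each point is a DMR, placed by its distance from the TSS in the direction of transcription (x axis, kb, a scale of its own for each gene) and by the young adult minus the infant mean methylation (y axis, percentage points), with gains in orange, losses in green and exons of the widest curated transcript as boxes on the gene line. *Dll4* carried 5 gains between 3,546 and 3,069 bp upstream of its TSS and 5 losses within its body, while the losses of *Notch1* lay mostly in intron 2.

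Direction went together with position. Within the 7 gene bodies lay 34 DMRs, of which 14 were gains and 20 losses, whereas 9 of the 10 DMRs in the flanks were gains. In the list as a whole, gains made up 42.5% of the 12,175 DMRs in any gene body, compared with 41.2% of those in the Notch gene bodies, and 69.4% of the 1,872 DMRs that lay within 10 kb of a gene but in none. Of the 10 DMRs in the Notch gene flanks, 4 lay in no other gene and were gains. The other 6 lay inside a neighbouring gene, with 5 gains in the row upstream of *Dll4* and 1 loss upstream of *Notch1*.

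The gains at the Notch genes had a median of 24.2 percentage points (range 10.2 to 35.8), and those of the whole list a median of 20.4. The losses had a median of -27.1 percentage points (range -56.3 to -15.1), compared with -32.5 for the whole list. Gains were thus somewhat larger at these genes and losses somewhat smaller than in the list at large. With DMRs of the same direction within 500 bp merged, the medians at the Notch genes were 22.7 and -26.2 percentage points. In the gene bodies alone they were 21.9 and -27.9. The levels from which the gains started also differed: the median infant mean of the gains was 35.9% at the Notch genes and 54.8% in the whole list, and the median young adult mean was 62.2% compared with 78.1%. For the gains in the Notch gene bodies alone, these medians were 46.6% and 71.8%. The gains of the list include 3,434 farther than 10 kb from any gene, which the rule for the Notch genes could not count. Of the 23 gains, 10 (43.5%) rose from an infant mean under 30%, as did 23.4% of all gains, and 5 (21.7%) ended above 80% in young adult EC, as did 46.3% of all gains. In the gene bodies, 4 of 14 gains (28.6%) rose from an infant mean under 30%. The 9 gains in the flanks, of which 6 did, include the 5 neighbouring gains upstream of *Dll4*. For the losses, the median infant mean was 56.1% and the median young adult mean 26.7%, and 6 of 21 (28.6%) ended under 20%, compared with 38.1% of all losses.

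**Figure D2:**
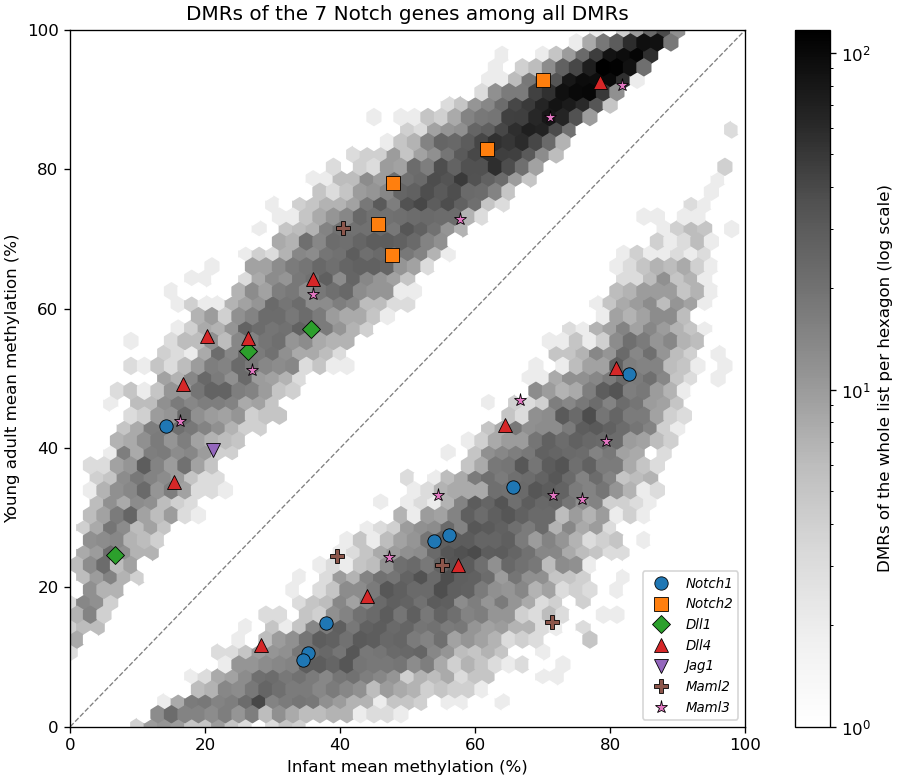
The infant mean methylation (x axis, %) is plotted against the young adult mean (y axis, %) for all 18,333 DMRs as grey hexagons (darker for more DMRs, log scale) and for the 44 DMRs of the Notch genes as coloured symbols, with equal means on the dashed line. The symbols above the line are the 23 gains, of which 10 began under 30%, and those below it are the 21 losses.

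In relation to other genes, DMRs were numerous at this set as a whole, but unevenly so. Of 26,182 genes, 26.5% had at least 1 DMR in the body or within 10 kb, and all 7 Notch genes did. At least 5 DMRs were in reach of 3.21% of genes, among them *Notch1*, *Notch2*, *Dll4* and *Maml3*. As many DMRs as *Maml3* (12) or more were in reach of 165 genes, and as many as *Dll4* (11) or more in reach of 196. The 7 genes with their flanks held 3.65 DMRs per 100 kb, compared with 1.06 over all genes with flanks. By gene, this ranged from 36.8 at *Dll4* and 12.1 at *Notch1* to 1.82 at *Jag1* and 0.927 at *Maml2*, which lay below all genes. The value of *Dll4* includes the 5 neighbouring gains of its upstream run. The genes were put together with earlier results of these data known, so these counts describe the set and are no test of it.

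*Notch1* encodes the main Notch receptor of EC and lies on the minus strand (chr2:26457902-26503822, 34 exons, 45.9 kb). Loss prevailed, and 5 of its 7 losses lay in intron 2, which spans 16.4 kb or 35.8% of the gene. The largest loss of the intron (chr2:26485512-26485625, 3 CpGs) was at 65.6% in infant EC and at 34.3% in young adult EC, a difference of -31.2 percentage points. The next largest (chr2:26499748-26500044, 3 CpGs) went from 56.1% to 27.6%. Over the 5 intronic DMRs, the infant means lay between 34.5% and 65.6% and the young adult means between 9.56% and 34.3%, so every one of them was at an intermediate level in infant EC. The gaps between neighbours in the intron ranged from 751 bp to 8.50 kb.

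The largest loss of *Notch1* lay in coding sequence near the 3' end of the gene, in exon 34, the last exon (chr2:26460161-26460178), where 4 CpGs within 18 bp went from 82.7% to 50.6% (-32.2 percentage points). This DMR lies 779 bp (by its midpoint) from the gene 0610009E02Rik, which runs on the opposite strand, and its midpoint falls in the window around the end of that gene's transcript. Both DMRs outside the gene body lay upstream of the TSS and differed in direction. At 912 bp upstream, a DMR of 3 CpGs (chr2:26504670-26504799) went from 37.9% to 14.8% (-23.0 percentage points). At 4,510 bp upstream, the single gain (chr2:26508259-26508407, 4 CpGs) went from 14.2% to 43.2% (+29.0 percentage points), so that the upstream side of the gene held a loss close to the TSS and a gain farther out, separated by 3.46 kb. The promoter loss also lies in exon 1 of the noncoding gene Gm35978 on the plus strand, whose TSS is 105 bp from that of *Notch1*, and its part in either transcript was not tested.
The gain and the exonic loss are shown on the plus strand of mm10 with the CpGs in capitals, because they are the largest changes in each direction at this gene.
Notch1 gain: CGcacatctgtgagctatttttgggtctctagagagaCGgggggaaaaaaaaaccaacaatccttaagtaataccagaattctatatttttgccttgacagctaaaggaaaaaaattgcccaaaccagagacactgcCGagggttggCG
Notch1 exon 34 loss: CGgCGtcacaccCGgcCG
The regions differ in base composition, with 43% GC in the upstream gain and 83.3% in the exonic loss.

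*Notch2* encodes a receptor that EC and mural cells both use, and it lies on the plus strand (chr3:98013538-98150367, 34 exons, 136.8 kb). It gained methylation at all 5 of its DMRs. Among the 840 genes with at least 5 DMRs in reach, all were gains at 18.2%. Intron 1 (34.0 kb) held 4 of them, between 5.72 and 23.8 kb downstream of the TSS, and intron 14 the other. In order along the gene, the first (chr3:98019215-98019294) went from 47.6% to 67.7%, the next (chr3:98025040-98025098) from 70.0% to 92.8%, and the third (chr3:98026234-98026489) from 47.8% to 78.0%. The fourth (chr3:98037283-98037309) went from 45.6% to 72.1%, and the DMR of intron 14 (chr3:98113528-98113764), 100 kb from the TSS, from 61.8% to 82.9%. All 5 started at 45.6% or more in infant EC and ended at 67.7% or more, which is higher at both ages than the gains of the ligand genes, apart from the DMR downstream of *Dll4*. No DMR lay in the flanks of *Notch2*, and the nearest one outside them was 234 kb away.
The third DMR had the largest gain (+30.2 percentage points over 4 CpGs) and is shown on the plus strand with CpGs in capitals.
Notch2 gain: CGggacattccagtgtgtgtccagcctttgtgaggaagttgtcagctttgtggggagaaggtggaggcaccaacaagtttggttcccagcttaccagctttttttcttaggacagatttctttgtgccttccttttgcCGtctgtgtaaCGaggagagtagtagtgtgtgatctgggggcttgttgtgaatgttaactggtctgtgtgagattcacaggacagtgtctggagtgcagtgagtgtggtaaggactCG
Its 4 CpGs are spread over 256 bp, so this is a CpG-poor stretch of the intron, outside any computed CpG island.

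*Dll1* encodes a Delta-like ligand that in vessels is known from arterial EC, and it lies on the minus strand (chr17:15367354-15376932, 12 exons, 9.58 kb). Its 3 DMRs were gains, and each lay in a CpG island, here a stretch covered by windows of 200 bp with at least 50% GC and over 0.6 of the CpGs that their base composition predicts. The promoter DMR shown above in capitals (chr17:15377125-15377133) has its midpoint 196 bp upstream of the TSS, holds 3 CpGs in 9 bp and rose from 26.4% to 53.9% (+27.5 percentage points). The DMR 4,224 bp upstream (chr17:15381129-15381184, 4 CpGs) went from 35.6% to 57.1% (+21.5 percentage points). The DMR in intron 5 (chr17:15372156-15372171, 3 CpGs) went from 6.56% to 24.6% (+18.1 percentage points). This intronic DMR had the lowest infant level of the 44. Another gain lay just outside the flank, 10.02 kb beyond the 3' end of the gene (chr17:15357186-15357490), where the means were 63.7% and 79.9%, and was not counted. The farthest counted DMR was the one 4,224 bp upstream.

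*Dll4* encodes the ligand that marks tip cells and arterial EC, and it lies on the plus strand (chr2:119325784-119335666, 11 exons, 9.88 kb). It had 11 DMRs although it is among the shortest of the 7 genes, and 7.03% of the 583 CpGs in the gene and its flanks lay in a DMR, compared with 3.03% for *Notch1* and 0.365% for *Jag1*. Of the 41 CpGs in its DMRs, 19 lay in the row of gains upstream of the gene. Gains and losses were separated along the gene: 5 gains lay upstream, 5 losses within the body and 1 gain downstream.

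The upstream gains formed a run of 493 bp (chr2:119322230-119322722) that lay between 3,546 and 3,069 bp from the TSS by the midpoints of the DMRs. Gaps of 66 to 97 bp separated them, and the DMRs held 19 of the 40 CpGs of the stretch. In order towards the TSS, the DMR with sequence chr2:119322230-119322247 above went from 20.2% to 56.1% (+35.8 percentage points), the next from 35.9% to 64.2% (+28.3), and the third from 26.3% to 55.7% (+29.5). The fourth went from 16.7% to 49.2% (+32.5) and the fifth from 15.3% to 35.2% (+19.8). Weighted by CpGs, the run rose from 24.6% to 53.7% with age, and all of it lay in a CpG island also by the stricter definition (500 bp, 55% GC and a ratio above 0.65). Because neighbouring DMRs of the run can share fragments, they are not separate observations. The whole list had 8 such runs of at least 5 DMRs of the same direction with gaps of at most 200 bp, 6 of gains and 2 of losses, and the longest had 7 DMRs. The run lies in intron 3 of Gm14207, a noncoding gene on the minus strand that overlaps the start of *Dll4* and whose TSS is 413 bp from that of *Dll4*. It could thus be assigned to either gene.

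Within the body, the losses of *Dll4* lay between 2,948 and 9,623 bp from the TSS. The largest (chr2:119333543-119333914, intron 9, 5 CpGs) went from 57.5% to 23.1% (-34.3 percentage points). A DMR in the untranslated part of exon 11 (chr2:119335313-119335502, 3 CpGs) went from 80.9% to 51.5% (-29.4 percentage points), and one in the coding part of exon 9 (chr2:119332172-119332229, 4 CpGs) from 44.0% to 18.8% (-25.3 percentage points). Coding exons held 3 of the 5 losses, with the others in exon 9 again (64.4% to 43.4%) and in exon 6 (28.2% to 11.7%). The last DMR along the gene, 8.24 kb beyond its 3' end (chr2:119343749-119344059, 3 CpGs), went from 78.4% to 92.5% (+14.1 percentage points), the smallest difference of the 11. In the reference, 57.2% of its bases and 47.6% of those of the intron 9 loss are masked as repeats.
The intron 9 loss is shown by its first 300 bases (chr2:119333543-119333842) on the plus strand, with CpGs in capitals.
Dll4 intron 9 loss: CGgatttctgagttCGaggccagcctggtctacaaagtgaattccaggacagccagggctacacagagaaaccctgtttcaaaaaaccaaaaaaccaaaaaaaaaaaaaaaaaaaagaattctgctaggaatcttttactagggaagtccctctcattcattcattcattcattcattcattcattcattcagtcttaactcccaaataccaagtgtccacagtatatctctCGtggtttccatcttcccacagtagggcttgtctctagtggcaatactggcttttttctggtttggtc
The bases shown hold 3 of its CpGs, and the spacing contrasts with the upstream run, where a DMR of 28 bp held 5.

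*Jag1* encodes a Jagged ligand that EC present to mural cells and that can oppose DLL4 signaling in sprouts. It lies on the minus strand (chr2:137081451-137116520, 26 exons, 35.1 kb) and had 1 DMR, the fewest of the 7 genes. The DMR lay in intron 2, 2,685 bp downstream of the TSS (chr2:137113806-137113865, 3 CpGs), and went from 21.2% to 39.7% (+18.5 percentage points).
It is shown on the plus strand with the CpGs in capitals, as the only DMR of this gene.
Jag1 gain: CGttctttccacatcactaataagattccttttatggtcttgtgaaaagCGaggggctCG
Of the 15 DMRs of the 3 ligand genes, 10 (66.7%) were gains, compared with 54.1% of all DMRs. Under 65% in young adult EC stayed 9 of these gains, the exception being the DMR downstream of *Dll4*. The 9 include the 5 DMRs of the *Dll4* run, which are not separate observations.

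**Figure D3:**
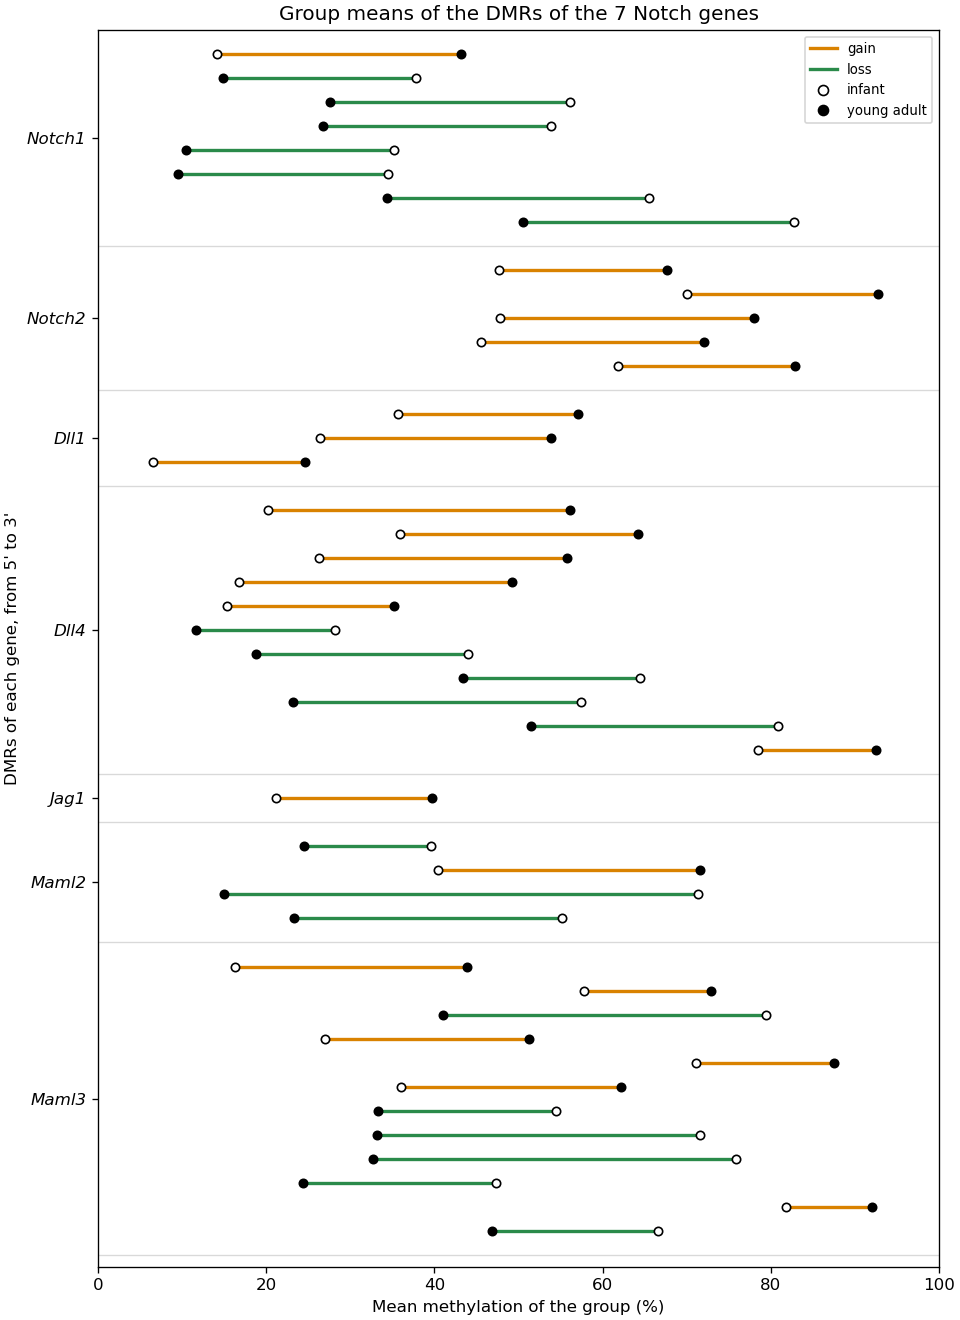
For each of the 44 DMRs, ordered from 5' to 3' within its gene (y axis), the open circle gives the infant and the filled circle the young adult group mean of methylation (x axis, %), joined by an orange line for a gain and a green line for a loss. The circles are the authors' means over 3 samples without an error. The longest line is a loss in *Maml2* from 71.3% to 15.0%.

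*Maml2* encodes a Mastermind-like coactivator of the nuclear Notch complex and spans 411.6 kb on the plus strand (chr9:13297958-13709533, 5 exons). Its 4 DMRs all lay in intron 1, which takes up 321 kb or 78.1% of the gene. The largest difference of the 44 was a loss 295 kb from the TSS (chr9:13592731-13592910, 4 CpGs), from 71.3% to 15.0% (-56.3 percentage points). Another loss (chr9:13592929-13593177, 6 CpGs) began 18 bp after it with 1 CpG in between and went from 55.2% to 23.3% (-31.9 percentage points), so that the pair forms a place of 447 bp in which 10 CpGs lost methylation. The remaining DMRs lay alone. A loss 171 kb from the TSS (chr9:13468661-13468840, 3 CpGs) went from 39.6% to 24.5% (-15.1 percentage points), and a gain 243 kb from the TSS (chr9:13540865-13541024, 3 CpGs) from 40.4% to 71.6% (+31.1 percentage points).
The largest loss and the gain are shown on the plus strand with the CpGs in capitals.
Maml2 loss: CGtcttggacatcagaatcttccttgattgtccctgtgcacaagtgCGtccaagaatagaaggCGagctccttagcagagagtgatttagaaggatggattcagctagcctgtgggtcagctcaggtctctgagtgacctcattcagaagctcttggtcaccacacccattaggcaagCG
Maml2 gain: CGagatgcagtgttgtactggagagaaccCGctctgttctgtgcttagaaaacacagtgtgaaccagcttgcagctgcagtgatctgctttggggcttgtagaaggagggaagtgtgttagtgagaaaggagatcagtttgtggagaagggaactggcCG
Both regions had 50.6% GC, neither was in a computed CpG island, and both held few CpGs for their length.

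*Maml3* encodes another coactivator of this family and spans 417.4 kb on the minus strand (chr3:51687611-52105006, 5 exons). It had the most DMRs of the 7 genes, 12, all in the gene body, and they held 0.797% of the 6,148 CpGs in reach. Per 100 kb of the gene with its flanks there were 2.74 DMRs, compared with 1.06 over all genes with flanks. Intron 1 held 5 gains and 2 losses, intron 2 held 1 gain and 3 losses, and the untranslated part of exon 5 held 1 loss. The largest loss was the longest DMR of the set (chr3:51807897-51808480, intron 2), where 14 CpGs over 584 bp went from 75.8% to 32.7% (-43.2 percentage points). A DMR of 10 bp in intron 1 (chr3:52039387-52039396) went from 79.4% to 41.1% (-38.4 percentage points) and lies wholly in bases masked as repeats. A DMR in intron 2 (chr3:51833990-51834100, 4 CpGs) went from 71.6% to 33.2%, again -38.4 percentage points. These 3 losses were each larger than any gain of the set.

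The first DMR along *Maml3* was also its largest gain (chr3:52046281-52046292, intron 1), where 3 CpGs in 12 bp went from 16.3% to 43.9% (+27.6 percentage points). The next largest gains, also in intron 1, went from 36.0% to 62.2% (chr3:51908532-51908595) and from 27.0% to 51.2% (chr3:52035677-52035773). All 3 began under 40% and ended under 65%. The last DMR, the loss in exon 5 (chr3:51689025-51689255, 4 CpGs), went from 66.6% to 46.9% (-19.7 percentage points). The remaining 5 DMRs were 3 gains of 10.2 to 16.4 percentage points and 2 losses of -21.2 and -23.0. Gains and losses could lie close together, since in intron 2 a gain (81.8% to 92.1%) and a loss (47.3% to 24.3%) were 505 bp apart with 7 CpGs in between.
The largest gain and the first 300 bases of the largest loss (chr3:51807897-51808196) are shown on the plus strand with the CpGs in capitals.
Maml3 gain: CGtccCGgcaCG
Maml3 loss: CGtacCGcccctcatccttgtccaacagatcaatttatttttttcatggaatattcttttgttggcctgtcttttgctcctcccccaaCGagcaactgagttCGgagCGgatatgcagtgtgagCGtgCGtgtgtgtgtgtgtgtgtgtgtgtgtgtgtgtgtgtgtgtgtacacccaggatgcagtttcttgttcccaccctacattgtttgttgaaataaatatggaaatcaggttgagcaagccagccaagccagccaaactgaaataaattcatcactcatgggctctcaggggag
The first 300 bases of the loss hold 7 of its 14 CpGs and a long run of the dinucleotide GT.

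By location, with promoters and transcript ends taking priority over exons and introns of any gene, 33 of the 44 DMRs (75%) were intronic, compared with 58.1% of all DMRs. The directions differed in this: introns held 82.6% of the gains, compared with 43.8% of all gains, and 66.7% of the losses, compared with 74.9% of all losses. The shares of the list are taken over all its DMRs, of which 4,286 (3,434 gains and 852 losses) lay farther than 10 kb from any gene. The rule for the Notch genes could not count such DMRs. All 10,651 intronic DMRs of the list lay among the 14,047 in a gene body or within 10 kb of one. The differences from the list are therefore not those between like sets. Of the 19 intronic gains, 5 were the *Dll4* run, which lies in an intron of Gm14207. Exons held 5 DMRs (11.4%, compared with 6.73% of all), all of them losses, while exons in the list held 667 gains and 566 losses. Apart from the DMR in exon 5 of *Maml3*, these exonic losses were all at *Dll4*. Promoters held 1 gain and 1 loss (4.55%, compared with 2.11%), and 3 gains lay outside any gene (6.82%, compared with 31.7%). Of the 5,818 DMRs of the list outside any gene, 4,286 were beyond the reach of 10 kb, so the lower share follows in part from the rule. Within the 7 genes' own transcripts, introns held 14 gains and 14 losses, coding exons 4 losses and untranslated parts of exons 2 losses. CpG islands overlapped 12 of the 44 DMRs (27.3%, compared with 13.8% of all DMRs). These were 10 of the 23 gains (43.5%, compared with 15.8% of all gains) and 2 of the 21 losses (9.52%, compared with 11.6%). The island gains lay at *Dll4* (5), *Dll1* (3), *Notch2* (1) and *Maml3* (1), and the 5 at *Dll4* were those of the upstream run. In the gene bodies, islands overlapped 5 of 34 DMRs (14.7%) and 3 of 14 gains (21.4%). In the flanks they overlapped 7 of 9 gains. The DMRs had a median width of 97.5 bp (9 to 584) and 3 to 14 CpGs, and 28 of them (63.6%) had the minimum of 3 CpGs, as did 66.5% of all DMRs.

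Short motifs of factors that act with Notch or in EC were searched on both strands of the 200 bp around the midpoint of each DMR. The RBPJ motif GTGGGAA occurred in 6 of the 44 windows (13.6%) and in 4.85% of all windows. It was found at the upstream gain of *Notch1*, at the intron 9 loss of *Dll4* and at 4 DMRs of *Maml3*, of which 2 were gains and 2 losses, and in none of the windows of the *Dll4* run. Its core TGGGAA, which GTGGGAA contains, occurred in 12 windows (27.3%, compared with 19.0% of all). The ETS motif AGGAAG was in 12 windows (27.3%, compared with 28.6%) and the AP-1 motif TGANTCA in 2 (4.55%, compared with 6.54%), both at *Dll1*. The E-box CANNTG, whose last bases can be the first of the RBPJ core, was in 35 (79.5%, compared with 66.0%). A match gives only the letters in the window, the windows of the *Dll4* run overlap each other, and no binding was measured.

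The other genes of the pathway were taken from a list of 60 genes by role, all of which were found in the annotation. Of these, 25 (41.7%) had at least 1 DMR in reach, compared with 26.5% of all genes, and 35 had none. The 60 genes had a median length of 26.9 kb, and the comparison with all genes took no account of length. The 60 genes held 54 DMRs with 26 gains and 28 losses, and the share of gains was 48.1%. Gains only were found at 12 genes, losses only at 10 and both at 3. The genes named by their number of DMRs were *Ctbp2*, *Neurl1a*, *Hdac1*, *Lfng*, *Nrarp* and *Spen*, the others below were named after their values were seen, and none of the 60 had a DMR at a promoter.

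Among the receptors and ligands left, *Notch4*, a receptor largely restricted to EC, had 1 gain 3,064 bp upstream of its TSS (6.30% to 33.9%), and *Notch3*, the receptor of mural cells, had no DMR. *Jag2*, a Jagged ligand, had 2 losses in an intron, and *Dner*, a noncanonical ligand, 1 gain. The 8 genes of the nuclear complex held 1 gain and 2 losses. *Rbpj*, the third Mastermind-like gene *Maml1* and the acetyltransferase gene *Ep300* were among the 5 without a DMR, the acetyltransferase genes *Crebbp* and *Kat2b* had 1 loss each, and *Snw1*, which encodes a cofactor of the complex, had 1 gain (57.1% to 84.2%). The 9 genes for proteases that cleave Notch had none.

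Of the roles in this list, the corepressors held the most DMRs, 23 at 8 of 11 genes, with 11 gains and 12 losses. They were also the role with the most genes, with a median length of 46.1 kb, compared with 26.9 kb over the 60 genes. *Ctbp2*, a corepressor of the CtBP family, had 5 losses within the gene and 2 gains at its 5' end, the larger going from 36.9% to 75.9% at 1,530 bp upstream of the TSS. *Hdac1*, a histone deacetylase gene, had 4 gains, of which 3 lay in its downstream flank in or next to *Marcksl1*. *Spen*, which encodes a corepressor that binds RBPJ, had 3 losses in the gene body, the largest of which went from 65.8% to 28.6%.

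Target genes had 6 DMRs at 3 of 6 genes, all gains and all in flanks, a position at which 69.4% of the DMRs of the list were gains. *Nrarp*, a feedback inhibitor of Notch, had 3, which rose from 16.7% to 40.2% upstream and from 75.5% to 93.1% and 22.7% to 49.6% downstream. *Hes1*, a transcriptional repressor, had 2 downstream, and *Heyl*, a related repressor, had 1 upstream, while *Hes5*, *Hey1* and *Hey2* had none. Of the glycosyltransferases that modify Notch receptors, *Lfng* had 3 losses, the largest of which (90.7% to 52.6%) lies within the neighbouring gene *Ttyh3*, *Mfng* had 1 loss (40.3% to 5.76%) and *Poglut1* had 2 gains. *Neurl1a*, a ubiquitin ligase for Notch ligands, had 3 gains within the gene and 3 losses at its 3' end, of which 2 lie in *Sh3pxd2a*. Of the 9 genes for endocytosis and turnover of the receptor, 6 had no DMR. The others held 5 losses and no gain, all in introns within the gene bodies, where 57.5% of the DMRs of the list were losses, at *Numb*, an inhibitor of Notch, *Fbxw7*, a ubiquitin ligase subunit, and *Dtx4*, another ubiquitin ligase.

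**Figure D4:**
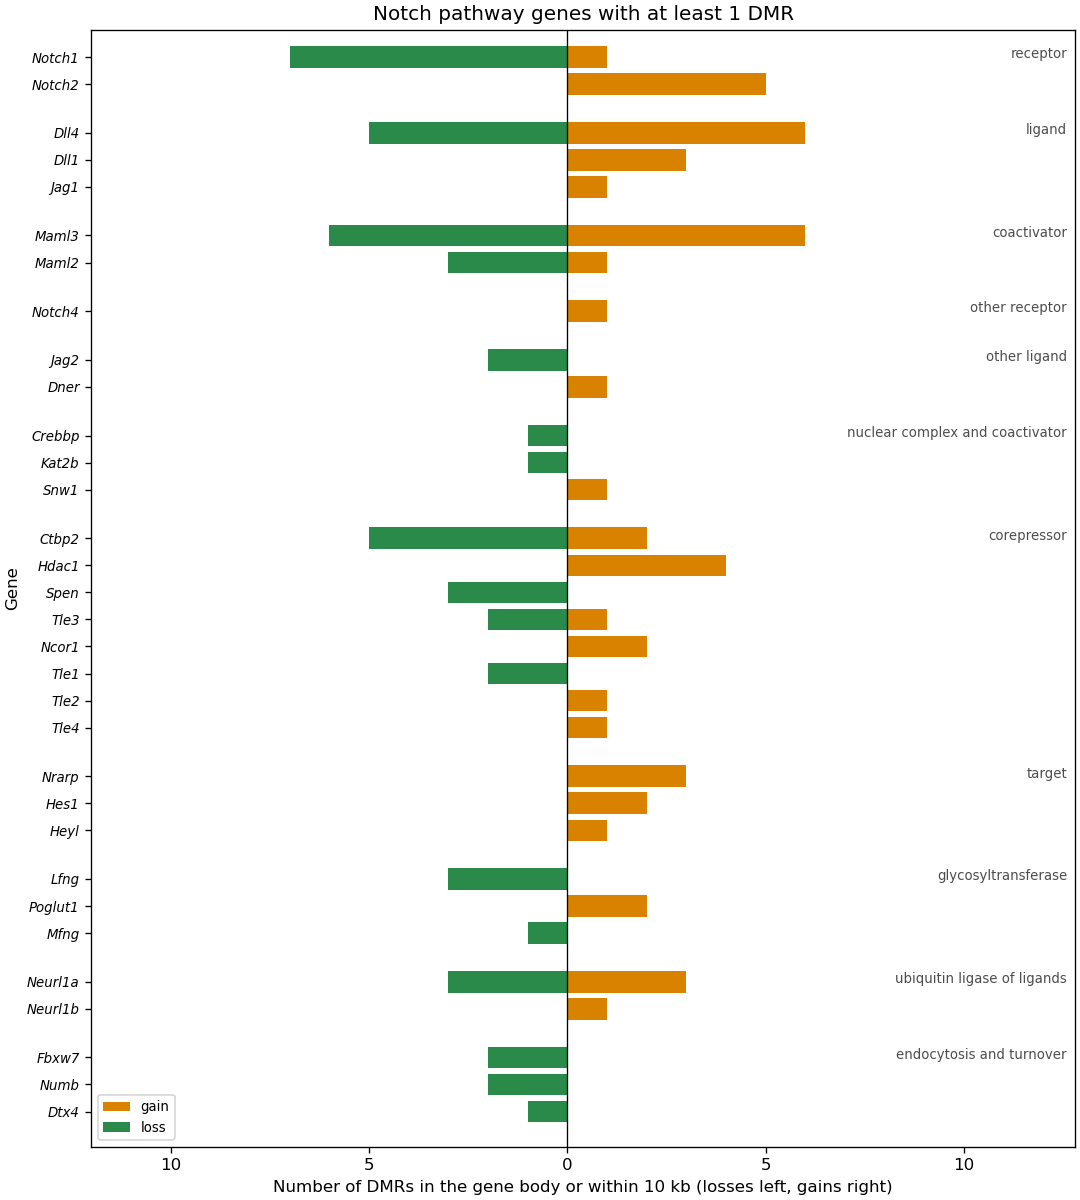
Bars give the number of DMRs in the body or within 10 kb of each Notch pathway gene with at least 1 DMR (x axis; losses to the left in green, gains to the right in orange), with genes grouped by role. *Ctbp2*, a corepressor gene, had the most DMRs of the other pathway genes, 5 losses and 2 gains, and apart from the corepressors no role of those genes held more than 7 DMRs.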

How the data were processed

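T-WGBS of sorted lung EC was compared between 3 infant and 3 young adult samples, described as independent biological replicates. According to the study's methods, reads were aligned with BWA (version 0.6.1 in the submitters' processing notes) to in silico converted mm10, duplicates were removed and bases of at least Phred 20 were used, without the 9 bp next to tagmentation ends. DMRs were called with bsseq, without smoothing, on CpGs that 2 or more of a group's 3 samples covered 8-fold, so that coverage affects which CpGs could be listed. A DMR needed 3 or more CpGs in a row, each under a threshold of 0.05 in the authors' test per CpG, and 10% or more between the means of the groups. In the deposited list, methylation is a fraction per group and DMR, averaged by the authors over CpGs and samples, with 0 columns of values per sample.

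Here fractions were turned into percent with python 3.11.15 and pandas 2.3.3, and the infant mean was subtracted from the young adult mean. Positions were written from the first C to the last G of a DMR, and 18,333 of 18,333 began and ended with a CpG in GRCm38.p6, read with pysam 0.24.0. The annotation was 45,756 curated RefSeq transcripts of 26,182 genes, and exon and intron numbers refer to a gene's widest one. The location of a DMR was the first that applied to its midpoint of promoter (1 kb upstream to 100 bp downstream of a TSS), transcript end, exon, intron and intergenic. Repeats are the soft-masked bases of the reference. The assignment to genes and the island search were tested on simulated data.

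The 7 genes, the pathway list, the motifs and the rule for named genes were chosen with earlier results of these data known. In the pathway list, 1 gene was left out of all counts and is not reported here. All DMRs were described for genes with up to 6, otherwise the 3 largest gains and losses and the first and last, and of the other pathway genes the 6 with the most DMRs and any with a promoter DMR. Ties were taken in alphabetical order, which left out *Tle3* with 3 DMRs (1 gain and 2 losses). The other DMRs of the *Dll4* run and of its coding exons, and the gain of *Maml3* next to a loss, were named after their values were seen. No test was made: the exact permutation test, the omission of replicates and the replicate block that had been planned need values per sample. Alternatives were a difference of at least 20 percentage points, at least 5 CpGs, merging within 500 bp, no flank or 20 kb, any overlap, predicted transcripts, only DMRs nearest to the gene, promoters of 2 kb to either side and stricter islands.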

Additional observations from a re-analysis of the deposited data

How the results depend on the processing

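Of the 75 values recomputed for the counts, sizes and locations of the DMRs under other settings, 60 stayed within 1.5 times the value reported and 15 did not. With a difference of at least 20 percentage points, the other pathway genes had 17 gains, compared with 26 as reported. With at least 5 CpGs per DMR, the 7 genes kept 2 gains and 4 losses, with 6 DMRs in introns, 0 at promoters and 2 in CpG islands, and the other pathway genes 2 gains and 5 losses. Without flanks there were 14 gains, 0 promoter DMRs and 5 island DMRs, and 14 gains at the other pathway genes. With only DMRs nearest to the gene, 1 promoter DMR and 7 island DMRs remained, and with stricter islands 7. The losses outnumbered the gains of *Dll4* in 3 settings: gains minus losses were +1 as reported, -3 with DMRs of the same direction within 500 bp merged, -5 without flanks, and -5 with only DMRs nearest to the gene. The last 2 settings leave out both the 5 gains of the run and the gain downstream of *Dll4*. Of the 56 values of gains minus losses per gene, 13 more moved. With at least 5 CpGs, *Notch2*, *Dll1* and *Jag1* went to 0, and *Notch1*, *Maml2* and *Maml3* to -1. At 20 percentage points *Dll4* and *Jag1* went to 0, *Maml2* to -1 and *Maml3* from 0 to -2. *Maml2* was at -1 with merged DMRs, *Dll1* at 1 without flanks and *Maml3* at 1 with flanks of 20 kb. No paired analysis was possible because the list holds group means only. For the same reason no replicate could be left out, and no difference was set against the spread between samples. The depth behind a DMR is unknown, and CpGs below the coverage minimum could not be listed.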

Other observations

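Of the 44 DMRs, 2 (4.55%) had at least 50% of their bases masked as repeats, the gain downstream of *Dll4* and the DMR of 10 bp in *Maml3*, compared with 8.30% of all DMRs. Losses of at least 40 percentage points made up 2 of the 21 losses, at *Maml2* and *Maml3*, compared with 20.3% of all losses, and gains of at least 30 made up 4 of the 23 gains, at *Dll4* (2), *Notch2* and *Maml2*, compared with 13.0% of all gains.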
